A study of Homo sapiens with 4 samples.

Results

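The genes of the 3 fibrinogen chains, FGA (ENSG00000171560.10), FGB (ENSG00000171564.7) and FGG (ENSG00000171557.12), and their relative fibrinogen-like 1, FGL1 (ENSG00000104760.12), were followed through CEBPB knockdown. They were selected by gene name and are 4 of the 57820 genes measured. RNA came from A549, an established human lung adenocarcinoma cell line in which the series title describes the antioxidant regulator NRF2 as activated. The control group had 2 libraries from A549 cells given control siRNA. The knockdown group had 2 libraries from A549 cells given siRNA against the transcription factor CEBPB, 1 with CEBPB siRNA-1 and 1 with CEBPB siRNA-2. Fresh medium was given at 24 h and cells were collected 24 h later. The sources do not say whether the control libraries were separate cultures, so p-values measure only the spread between these libraries, which may be technical. In the knockdown group that spread also holds the difference between the siRNAs.

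Fibrinogen is the soluble plasma protein that thrombin converts to fibrin, the mesh of a blood clot. Each molecule pairs copies of an alpha, a beta and a gamma chain, encoded by FGA, FGB and FGG, which are joined by disulfide bonds in the endoplasmic reticulum before secretion. Hepatocytes are the main source, and the chain genes are classical acute phase genes that interleukin-6 induces through STAT3, together with C/EBP factors. Epithelial cells outside the liver, including lung lines, can also make fibrinogen. FGL1 is a hepatocyte-secreted protein with a fibrinogen-like domain but without the parts that form clots, and it is known as a ligand of the immune checkpoint receptor LAG3.

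The chain genes lie side by side on chromosome 4 in the order FGB, FGA, FGG, with FGB on the plus strand and the others on the minus strand. Because the chain genes moved together, the 250 bases before an annotated start of each are shown. They are from RefSeq on GRCh38.p14, which is not the build of the authors' processing. Promoters were held there for 3 of the 4 genes, and FGL1 had no entry. FGB had 2 annotated starts, of which the first listed was used. Capitals mark CTGGGA, the core of the interleukin-6 response element, and TTGCNNAA, a C/EBP site, each searched on both strands.
FGA, chr4:154590743-154590992, minus strand: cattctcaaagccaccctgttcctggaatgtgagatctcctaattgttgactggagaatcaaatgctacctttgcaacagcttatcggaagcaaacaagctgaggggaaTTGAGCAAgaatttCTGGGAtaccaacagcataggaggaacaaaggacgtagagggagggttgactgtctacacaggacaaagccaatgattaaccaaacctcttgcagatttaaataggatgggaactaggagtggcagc
FGB, chr4:154562730-154562979, plus strand: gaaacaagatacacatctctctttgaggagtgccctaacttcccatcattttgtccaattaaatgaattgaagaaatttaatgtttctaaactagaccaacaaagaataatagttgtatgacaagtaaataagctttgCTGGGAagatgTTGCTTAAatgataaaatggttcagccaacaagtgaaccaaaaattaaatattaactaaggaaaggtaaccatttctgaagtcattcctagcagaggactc
FGG, chr4:154612657-154612906, minus strand: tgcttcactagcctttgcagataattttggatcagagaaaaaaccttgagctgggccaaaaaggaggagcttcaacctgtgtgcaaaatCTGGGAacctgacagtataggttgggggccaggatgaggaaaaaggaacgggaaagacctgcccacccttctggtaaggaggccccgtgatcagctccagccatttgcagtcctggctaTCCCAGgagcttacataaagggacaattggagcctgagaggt

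In these windows CTGGGA lay at bases 127 to 122 before the start of FGA, 112 to 107 before FGB and 161 to 156 before FGG. FGG had a further match on the other strand at bases 42 to 37. The C/EBP letters were found at bases 141 to 134 in FGA, on the other strand, and at bases 101 to 94 in FGB. In both genes they were within a few bases of CTGGGA, without overlapping it. They were not found in the FGG window. TATAAA, the TATA box, was found in none of the 3 windows. Of 27305 promoters of the same length, 1 per gene, 28.8% held CTGGGA, 9.13% TTGCNNAA and 11.1% TATAAA. Matches describe letters only and are not evidence that a factor binds there.

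Values were taken as FPKM, fragments scaled to transcript length and library depth, though the deposited values carry no unit. On that reading, levels of different genes can be set side by side. The libraries summed to between 494066 and 528606 FPKM and had 13752 to 14325 genes at 1 FPKM or more. The siRNA target, CEBPB, was at 78.7 and 80.9 FPKM in control cells, 12.9 under siRNA-1 and 10.97 under siRNA-2, or 16.2% and 13.7% of the control mean. All 5 epithelial markers reached a mean of 1 FPKM. Limma, a linear model fitted over all 14068 genes at that mean, called 0 of them (0.0640% of all tested genes higher and 0.171% lower), with 1 higher and 2 lower at an unadjusted p below 0.05 (7.07% and 5.13%). The keratin KRT18 was at 1740 and 2502 FPKM in control cells and 568 and 1351 after knockdown, and the authors' deposited table called it lower. KRT8 was at 1835 and 2517 FPKM against 1226 and 1467, and KRT19 at 2.41 and 3.28 against 5.32 and 7.38. Their part in the results was not tested. Of 7 alveolar type II markers, 4 were listed at 0 in every library, among them the surfactant gene SFTPB and the lineage factor NKX2-1. The lipid transporter ABCA3, the 1 tested marker of that list, was at 14.6 and 11.2 FPKM in control cells and 24.8 and 21.99 after knockdown, and the authors' deposited table called it higher. Of 12 hepatocyte markers, 4 were listed at 0 throughout (AFP, APOA1, APOC3 and TTR), and albumin, ALB, reached at most 0.606 FPKM. Summed over that list, the level was 19.1 and 20.3 FPKM in control cells and 4.31 and 7.78 in the siRNA libraries. Most of it was APOH, a plasma glycoprotein gene. The authors' deposited table called 2 of the list lower, APOH (-1.64) and TF (-3.24), where it called 1.42% of its genes lower. The part of these markers in the results was not tested. Leukocyte (4 of 5) and endothelial (3 of the 3 found) markers were listed at 0 apart from CD68, which lay between 4.69 and 16.8 FPKM. The authors' deposited table gave CD68 a mean normalized count of 0.754, so its level is uncertain. The 4 platelet markers summed to at most 1.52 FPKM. The 5 fibroblast markers summed to 0.717 and 0.573 FPKM in control cells and 4.47 and 2.30 after knockdown. Most of that was COL1A1, which the authors' deposited table called higher (1.88).

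In the controls the order of levels was FGB, FGA, FGG, FGL1, and no gene's controls overlapped those of the next. FGB stood 327th and 342nd among the 14068 genes tested and FGA 603rd and 743rd, both well above FGG at 3006th and 2799th and FGL1 at 4410th and 4035th. With siRNA-1 the order was the same. With siRNA-2 FGL1 stood above FGG, and over the siRNA libraries the values of these genes overlapped. FGB was thus the most abundant chain transcript in all 4 libraries and FGG the least abundant. The authors' deposited table, in counts and not per length, gave the chains the same order, with mean normalized counts of 2209 for FGB, 1431 for FGA and 285 for FGG, and 127 for FGL1. In GENCODE 29 the longest coding transcript is 3678 bases for FGA, 1975 for FGB, 1760 for FGG and 1967 for FGL1.

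**Figure D1:**
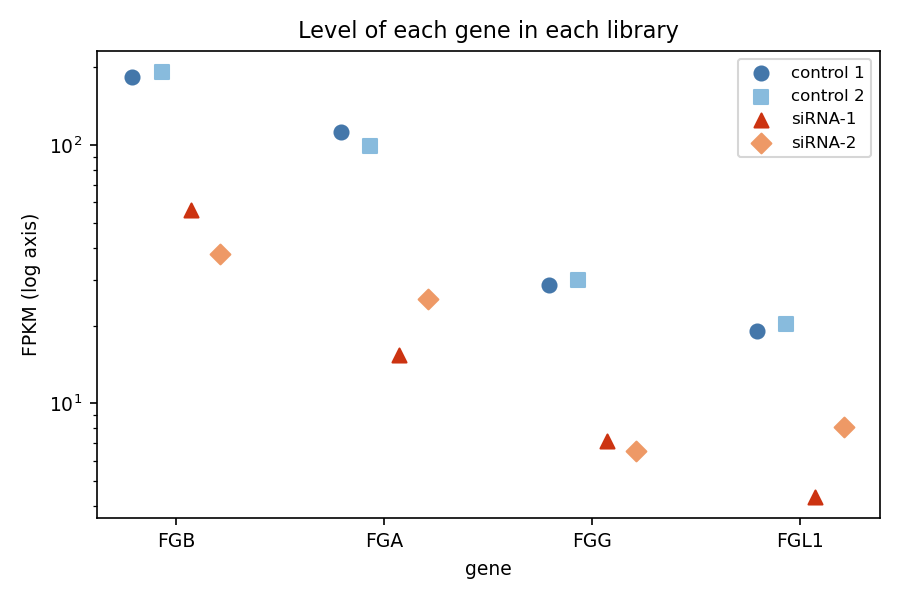
FPKM on a log axis of FGB, FGA, FGG and FGL1 in each of the 4 libraries, 1 point per library. For every gene both siRNA points lie below both control points; FGA and FGL1 are lower with siRNA-1 and FGB is lower with siRNA-2.

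All 4 genes were lower with both CEBPB siRNAs than in either control. FGG was called over all genes tested, at 0.234 of its mean control level, and the authors' deposited table called all 4. Averaged over both siRNAs, FGA had the largest log2 change and FGL1 the smallest. The order differed by siRNA: FGB changed most under siRNA-2 (-2.27) and least under siRNA-1 (-1.72). In bulk RNA, fewer cells that express a gene and less RNA per cell cannot be told apart.

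FGA, the alpha chain whose N-terminal peptide thrombin removes first, was at 112 and 99.1 FPKM in control cells, 15.4 under siRNA-1 and 25.2 under siRNA-2. The groups did not overlap, and siRNA-1 was the lower library, at 14.6% of the control mean against 23.9% with siRNA-2. On log2(FPKM + 1), a scale that understates the change of low genes, the change was -2.36 ± 0.26 (SE, n = 2 libraries per group; 95% interval -2.997 to -1.72), with a limma adjusted p of 0.0554. In the authors' deposited table the change is -2.46 with an adjusted p of 8.15e-16.

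FGB, the beta chain, whose transcription has been described as limiting for fibrinogen output in hepatocytes, was at 183 and 191 FPKM in control cells, 56.1 under siRNA-1 and 37.9 under siRNA-2. Here siRNA-2 was the lower library, at 20.2% of the control mean, and the groups again did not overlap. The log2 change was -1.998 ± 0.22 (95% interval -2.55 to -1.45), with a limma adjusted p of 0.0565. In the authors' deposited table the change is -2.03 with an adjusted p of 1.66e-10.

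FGG, the gamma chain, which carries sites for platelet integrins and for factor XIII crosslinking, was at 28.6 and 29.96 FPKM in control cells, 7.16 under siRNA-1 and 6.57 under siRNA-2. The siRNA libraries stood close together, at 24.4% and 22.4% of the control mean. FGG fell by 1.95 ± 0.17 on the log2 scale (95% interval -2.37 to -1.53), with a limma adjusted p of 0.0275. In the authors' deposited table the change is -2.25 with an adjusted p of 2.98e-11.

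FGL1, the fibrinogen-like relative, was at 19.1 and 20.3 FPKM in control cells, 4.36 under siRNA-1 and 8.14 under siRNA-2. The siRNA libraries were apart, at 22.1% and 41.3% of the control mean, and both were below the controls. The log2 change was -1.56 ± 0.29 (95% interval -2.28 to -0.85), with a limma adjusted p of 0.138. In the authors' deposited table the change is -1.69 with an adjusted p of 0.00526. In GENCODE 29, 2 genes on the other strand overlap FGL1 and none overlaps a chain gene. The libraries kept strand, but the sources used here do not say whether the counting used it.

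Of the 4 genes, limma called 1 lower over all genes tested, where it called 0.171% of 14068. The authors' deposited table called 4 of 4 lower, against 1.42% of the 14675 genes with an adjusted p there. Both analyses use the same 4 libraries. The groups did not overlap for 4 of 4, in the lower direction, as was so for 21.0% of tested genes. Limma's unadjusted p was below 0.05 for 4 of 4, against 5.13% of tested genes in that direction. The median log2 change of the 4 was -1.97, and that of all tested genes 0.0010. Ordered from the lowest change upward, FGA stood 26th, FGB 47th, FGG 50th and FGL1 107th of 14068.

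**Figure D2:**
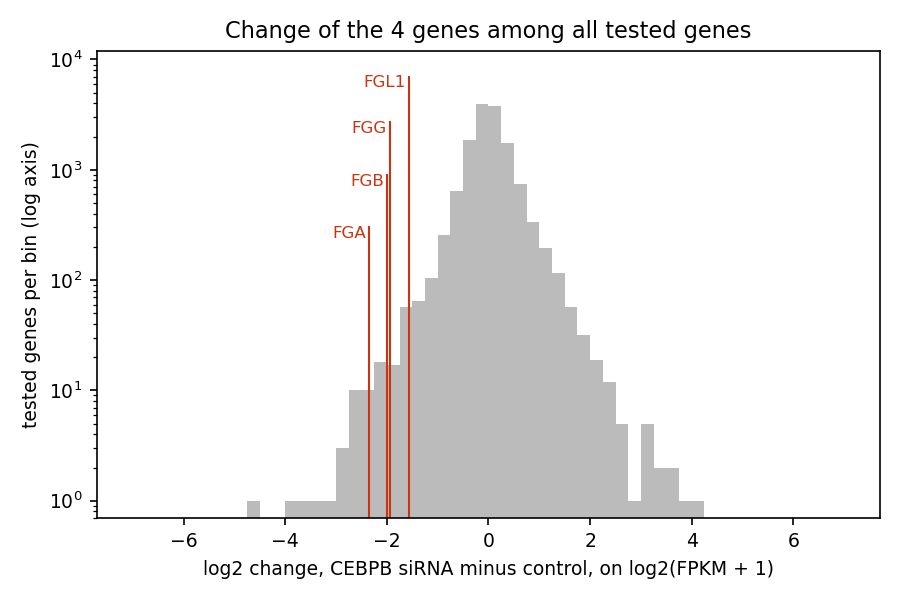
Distribution of the log2 change (CEBPB siRNA minus control, on log2(FPKM + 1)) over the 14068 tested genes, with a log count axis; red lines mark FGA, FGB, FGG and FGL1. All 4 lie in the lower tail, between -2.36 and -1.56.

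The limma calls depended on single libraries. FGG no longer passed when control 1 (limma adjusted p = 0.578) or control 2 (0.485) was left out. Its log2 change was then -1.98 and -1.92, and in those fits limma called 0 genes in all (736 and 685 at an unadjusted p below 0.05). FGA and FGB passed when either siRNA library was left out. The limma adjusted p was then 0.0257 for FGA and 0.0146 for FGB without siRNA-1, a fit that called 28 genes higher and 44 lower. It was 0.0058 and 0.0069 without siRNA-2, where 870 higher and 894 lower genes were called. FGL1 passed without siRNA-2 (limma adjusted p = 0.0081) and not without siRNA-1 (0.0693). In these fits the lone library of a group is assumed to vary as the other group does.

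The summed level of FGA, FGB and FGG was more alike between the siRNAs than FGA or FGB alone. The sum was 323 and 320.5 FPKM in control cells, 78.6 under siRNA-1 and 69.7 under siRNA-2, or 24.4% and 21.6% of the control mean. FGG made up between 8.85% and 9.43% of the sum in all 4 libraries. FGB made up 56.5% and 59.7% in the controls, 71.3% under siRNA-1 and 54.3% under siRNA-2. FGA made up 34.6% and 30.9% in the controls, 19.6% under siRNA-1 and 36.2% under siRNA-2. With siRNA-1, therefore, FGB took a larger share and FGA a smaller one than in any other library, while the siRNA-2 library stood just beyond the controls on the opposite side for both.

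**Figure D3:**
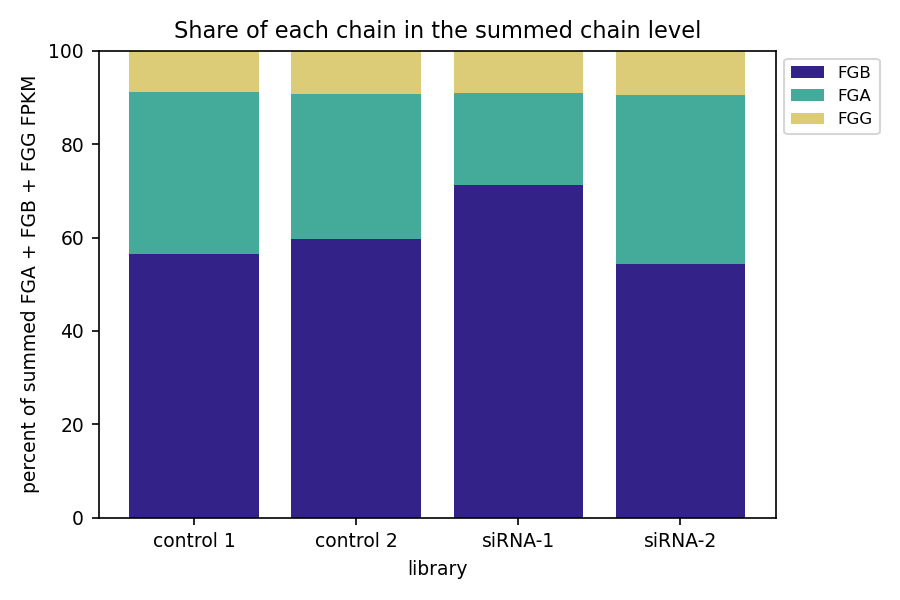
Stacked bars of the share, in percent, of FGB, FGA and FGG in their summed FPKM, 1 bar per library. The FGG share is 8.85% to 9.43% throughout, and the siRNA-1 bar has the largest FGB share (71.3%) and the smallest FGA share (19.6%).

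Fibrinogen is assembled from equal numbers of its chains, so the ratios between their transcripts were compared. FGB/FGG was 6.39 in each control, 7.84 under siRNA-1 and 5.76 under siRNA-2. The mean log2 ratio was 2.68 ± 0.00064 (SD, n = 2) in the controls and 2.75 ± 0.31 in the siRNA libraries, so the groups differed by less than the spread between the siRNAs. The ratio of the authors' mean counts, which are not per length, was 7.75.

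FGA/FGG was 3.91 and 3.31 in control cells, 2.15 under siRNA-1 and 3.84 under siRNA-2, and the siRNA-2 value lay between the controls. The mean log2 ratio was 1.85 ± 0.17 (SD, n = 2) in the controls and 1.52 ± 0.59 in the siRNA libraries. FGA/FGB was 0.612 and 0.518 in control cells, 0.275 under siRNA-1 and 0.667 under siRNA-2, so the siRNAs lay on opposite sides of the controls. The mean log2 ratio went from -0.83 ± 0.17 to -1.22 ± 0.90, a difference of -0.40 that was -1.04 without siRNA-2 and 0.24 without siRNA-1. FGL1/FGG was 0.665 and 0.678 in control cells, 0.609 under siRNA-1 and 1.24 under siRNA-2. Its log2 difference of 0.37 was -0.14 without siRNA-2 and 0.88 without siRNA-1.

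An exact two-sided permutation test of 2 libraries against 2 cannot go below p = 0.333, and so cannot pass 0.05. For the 4 ratios, a family of 4 comparisons, the exact permutation test gave p = 0.667 for FGA/FGG and 1 for each of the others, before any adjustment.

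**Figure D4:**
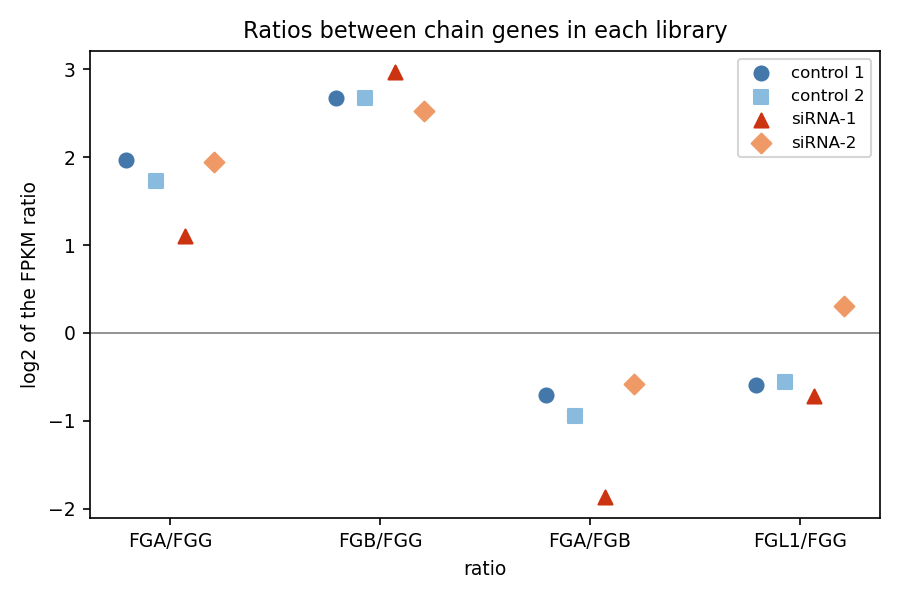
Log2 of the FPKM ratio for FGA/FGG, FGB/FGG, FGA/FGB and FGL1/FGG, 1 point per library, with the line at 0 marking equal levels. The controls lie close together, and the siRNA points lie on both sides of them except for FGA/FGG, where siRNA-2 falls between the controls.

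The siRNAs were also compared directly, in a fit with 3 groups whose spread comes from the controls alone. Each siRNA is 1 library, so the errors hold no spread of either siRNA and an interval away from 0 does not show that the siRNAs differ. For FGA, siRNA-1 minus siRNA-2 was -0.68 ± 0.17 on the log2 scale (SE; 95% interval -1.11 to -0.24), and FGL1 had the same sign (-0.77 ± 0.20; -1.28 to -0.26). FGB had the opposite sign (0.55 ± 0.14; 0.18 to 0.93). FGG had 0.11 ± 0.18 (-0.36 to 0.58). None of the 4 passed over all genes, with limma adjusted p-values of 0.116 for FGA, 0.121 for FGL1, 0.126 for FGB and 0.772 for FGG. This fit called 0.441% of tested genes, and 22.4% had an unadjusted p below 0.05, as 3 of the 4 did. Whether the siRNA difference of FGA differs from that of FGB was not tested.

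Next to the cluster, RefSeq places 4 other protein-coding genes within 500 kb: DCHS2, PLRG1, LRAT and RBM46. Of these only PLRG1, a spliceosome component, was tested. It was at 21.7 and 18.1 FPKM in control cells, 14.4 under siRNA-1 and 20.4 under siRNA-2, so its groups overlapped. The log2 change of PLRG1 was -0.20 ± 0.23 (limma adjusted p = 0.777). DCHS2, LRAT and RBM46 were at or below 0.299 FPKM in every library. Around FGL1, 6 neighbours were tested, and neither limma nor the authors' deposited table called any; all 6 log2 changes were below 0. NAT1, an arylamine acetyltransferase, was at 2.53 and 2.54 FPKM in control cells and 1.41 and 1.45 after knockdown, a log2 change of -0.54 (limma adjusted p = 0.420). SLC7A2, a cationic amino acid transporter, was at 4.97 and 5.22 FPKM against 2.68 and 3.72, a change of -0.55 (limma adjusted p = 0.422). For both, and for PCM1 (41.4 and 41.5 FPKM against 31.1 and 38.4), the siRNA libraries were below both controls. This was so for 21.0% of all tested genes. The groups of ASAH1, MTUS1 and PDGFRL overlapped. The change was between -0.55 and -0.13 on the log2 scale over the 6, and -1.56 for FGL1.

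The listed factors known to act on fibrinogen promoters in liver all reached the expression filter. For CEBPA, at 3.28 and 2.43 FPKM in control cells, the authors' deposited table gave a mean normalized count of 0.507. The level of CEBPA is thus uncertain. Of 10 hepatic transcription factors tested, limma called 1, CEBPB itself, lower (0.171% of all tested genes) and none higher, with a list median of -0.17. The authors' deposited table called 3 lower, CEBPB, the nuclear receptor HNF4A (-1.38) and the pioneer factor FOXA1 (-1.27), and 0 higher, where it called 1.42% of genes lower and 2.71% higher. HNF4A was at 9.52 and 18.4 FPKM in control cells, 6.65 under siRNA-1 and 3.20 under siRNA-2. FOXA1 was at 9.48 and 11.4 FPKM against 4.53 and 3.58. CEBPD, another C/EBP factor of the acute phase response, was at 21.6 and 24.2 FPKM against 20.5 and 30.9, and its groups overlapped.

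Genes of the interleukin-6 pathway had values on both sides of the controls. Of 11 tested, limma called 0 in either direction, where it called 0.0640% of genes higher. At an unadjusted p below 0.05, 4 were higher and 1 lower (7.07% and 5.13% of all tested genes), and the list median was 0.32. The authors' deposited table called 3 higher, STAT3 (0.75), the kinase JAK1 (1.19) and the receptor LIFR (1.58), and 1 lower, JAK2 (-1.10). STAT3, the factor that carries the interleukin-6 signal to CTGGGA-type elements, was at 37.9 and 31.8 FPKM in control cells, 55.4 under siRNA-1 and 56.1 under siRNA-2. IL6 itself was at 0.614 and 0.749 FPKM in control cells, was listed at 0 in both siRNA libraries and did not reach the expression filter.

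Of 18 listed positive acute phase genes, 5 were tested (LCN2, CP, SAA2, SAA1 and C3). For these 5, both siRNA libraries were below both controls, as for 21.0% of all tested genes. Each had an unadjusted limma p below 0.05, as did 5.13% of tested genes in that direction. Limma called 0 of them, and the list median was -1.35. The authors' deposited table called 2 of the list, both lower, where it called 1.42% of its genes lower. CP, the copper carrier ceruloplasmin, was at 48.9 and 41.8 FPKM in control cells, 2.41 under siRNA-1 and 7.44 under siRNA-2. The log2 change of CP was -3.11 ± 0.43 (limma adjusted p = 0.0926). LCN2, the siderophore-binding lipocalin, was at 69.4 and 64.3 FPKM against 24.3 and 27.0, a change of -1.35 ± 0.16 (limma adjusted p = 0.0691). SAA2, a serum amyloid A gene, was at 3.64 and 3.60 FPKM against 1.25 and 1.63; it has a near-identical copy, SAA1, so its level is uncertain. Below the expression filter, the antiprotease gene SERPINA3 was at 0.297 and 0.184 FPKM in control cells and 1.08 and 0.681 after knockdown. The authors' deposited table gave it a mean normalized count of 1.25 and a log2 change of -0.61, so its direction is uncertain. The liver acute phase genes CRP and HP were listed at 0 in all 4 libraries.

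No gene of the machinery that folds and exports secreted chains was called. All 13 genes of endoplasmic reticulum assembly and export were tested. Limma and the authors' deposited table called 0, with 0 at an unadjusted p below 0.05, and the median log2 change was 0.01. SURF4, a cargo receptor with the smallest p of the list, was at 94.6 and 96.2 FPKM in control cells and 60.9 and 80.6 after knockdown. PDIA3, a disulfide isomerase for glycoproteins, was at 125 and 142 FPKM against 154 and 155. MCFD2, a cofactor in export of clotting factors, was at 63.8 and 57.9 FPKM against 48.5 and 58.1.

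Among 14 coagulation factors, 6 were tested and limma called 0, with a list median of 0.24. At an unadjusted limma p below 0.05, 2 were lower and 0 higher (5.13% and 7.07% of all tested genes). The authors' deposited table called the same 2 lower, the thrombin-generating cofactor F5 (-1.77) and the initiating protease F7 (-2.80). It called 1.42% of its genes lower. F5 was at 3.19 and 3.61 FPKM in control cells, 1.12 under siRNA-1 and 0.937 under siRNA-2. F7 was at 2.29 and 1.48 FPKM against 0.289 and 0.128. F8 had values of 0.539 and 0.565 FPKM in control cells, 0.953 under siRNA-1 and 4.55 under siRNA-2. F13A1, whose product crosslinks fibrin, was listed at 0 in every library. Of 5 anticoagulant genes tested, limma and the authors' deposited table called 0. At an unadjusted limma p below 0.05, 1 was lower and 0 higher (5.13% and 7.07% of all tested genes). It was PROS1, protein S, at 12.6 and 14.02 FPKM against 6.96 and 8.10. The median of the 5 was 0.19.

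Fibrinolysis genes, which dissolve fibrin, lay mainly on the other side from the chain genes. Of 8 tested, limma called 0, and the list median was 0.83. At an unadjusted limma p below 0.05, 4 were higher and 0 lower (7.07% and 5.13% of all tested genes). The authors' deposited table called 2 higher, the tissue plasminogen activator PLAT (3.11) and the plasminogen-binding annexin ANXA2 (0.91). It called 2.71% of its genes higher. PLAT was at 0.641 and 0.395 FPKM in control cells, 6.17 under siRNA-1 and 4.07 under siRNA-2. ANXA2 was at 818 and 947 FPKM against 1924 and 1447. PLAU, the urokinase plasminogen activator, was at 60.9 and 44.8 FPKM in control cells, 424 under siRNA-1 and 92.2 under siRNA-2. For PLAU the siRNA-1 library stood far above the siRNA-2 library. S100A10, the annexin A2 partner that binds plasminogen, was at 282 and 319 FPKM in control cells, 879.6 under siRNA-1 and 282 under siRNA-2, so its groups overlapped (limma adjusted p = 0.0478 for siRNA-1 against siRNA-2, 1 library each).

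Of 6 tested fibrinogen receptors and crosslinkers, limma called 0, and the median was 0.75. At an unadjusted limma p below 0.05, 3 were higher and 0 lower (7.07% and 5.13% of all tested genes). The authors' deposited table had an adjusted p for 11 of this list. It called 4 of them higher, where it called 2.71% of its genes higher. These were the adhesion molecule ICAM1 (2.20), the integrin subunits ITGA5 (1.33) and ITGAV (1.29), and ITGAX (3.50). ITGAX was listed at 0 in both controls. ICAM1 was at 7.28 and 4.34 FPKM in control cells, 35.6 under siRNA-1 and 17.5 under siRNA-2. ITGAV was at 24.5 and 23.2 FPKM against 82.2 and 33.6, and ITGA5 at 15.2 and 11.3 against 46.0 and 20.9. TGM2, a transglutaminase that crosslinks proteins, was at 137 and 159 FPKM in control cells, 20.7 under siRNA-1 and 145 under siRNA-2. Its groups overlapped, with a log2 change of -1.40, and the siRNA-1 library stood far below the other 3 (limma adjusted p = 0.0404 for siRNA-1 against siRNA-2, 1 library each). LAG3, the receptor of FGL1, was at most 0.635 FPKM in any library.

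Few relatives that share the fibrinogen domain were expressed at a level that could be tested. Of 20, 3 were tested with a median of 0.87, and limma called 0. At an unadjusted limma p below 0.05, 1 was higher and 0 lower (7.07% and 5.13% of all tested genes). That gene, the matrix protein tenascin C, TNC, was at 0.742 and 0.548 FPKM in control cells, 4.504 under siRNA-1 and 1.98 under siRNA-2, and the authors' deposited table called it higher (2.16). ANGPTL4, a lipoprotein lipase inhibitor, was at 7.97 and 7.68 FPKM in control cells, 26.8 under siRNA-1 and 8.31 under siRNA-2. FIBCD1, a chitin-binding receptor, was at 1.67 and 0.439 FPKM against 1.67 and 1.91. FGL2, the closest relative of FGL1 by name, was at most 0.0863 FPKM.

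**Figure D5:**
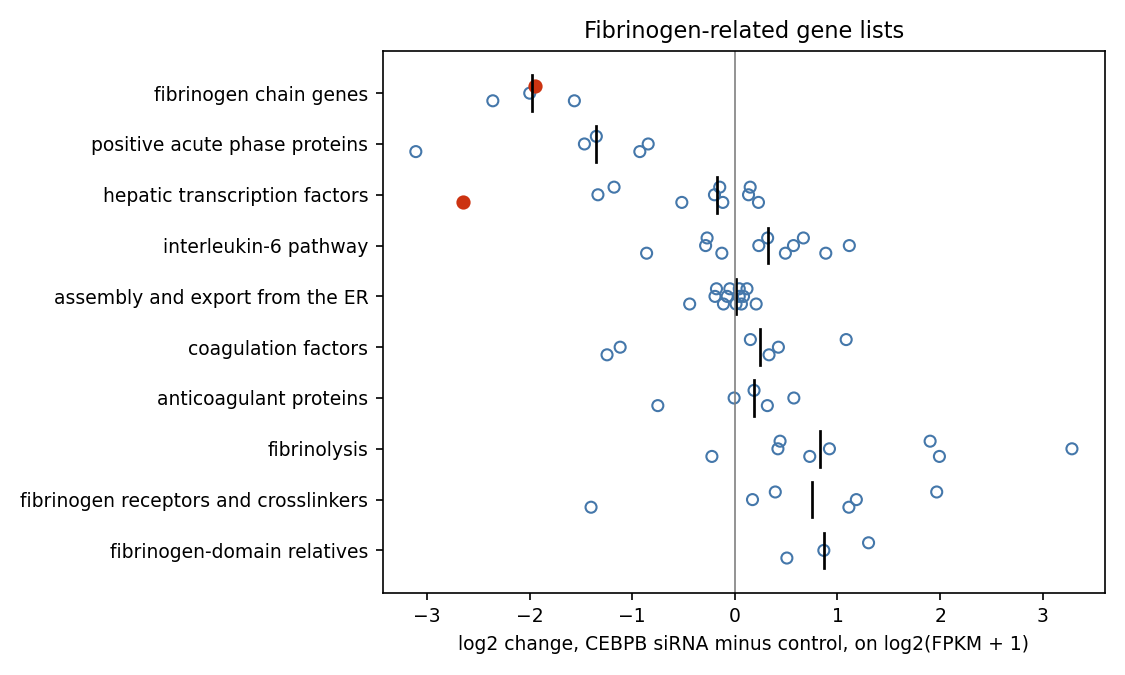
Log2 change (CEBPB siRNA minus control, on log2(FPKM + 1)) of each tested gene in the fibrinogen chain set and 9 related lists; filled red points passed limma over all genes, open blue points did not, and black bars are list medians. The chain genes (median -1.97) and tested acute phase genes (-1.35) lie to the left, and fibrinolysis genes (0.83) mainly to the right.

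The genes whose pattern over the 4 libraries was nearest to the mean pattern of FGA, FGB and FGG were found by Euclidean distance between centred log2(FPKM + 1) profiles. Among the chain genes themselves the distance was 0.18 for FGG, 0.41 for FGB and 0.55 for FGA, and it was 0.77 for FGL1. The 6 nearest other genes, at distances of 0.18 to 0.28, were C4BPA, CYP4F3, HGD, NPY1R, NTS and RTN4RL2. C4BPA, the alpha chain of the complement regulator C4b-binding protein, was at 3.53 and 2.77 FPKM in control cells and listed at 0 in both siRNA libraries. HGD, an enzyme of tyrosine breakdown, was at 26.4 and 31.99 FPKM in control cells, 6.99 under siRNA-1 and 5.99 under siRNA-2, close to the FGG levels. The neuropeptide gene NTS was at 452 and 361 FPKM against 87.6 and 105, and CYP4F3, a fatty acid hydroxylase, at 11.9 and 9.25 against 1.47 and 1.48. These genes were chosen for this pattern, over 4 libraries, so their values are a description only.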

How the data were processed

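RNA of 4 A549 libraries, 2 per group, was sequenced as 76-base single-end reads. Per the submitters' processing notes, the tools were DESeq2 1.26.0, HTSeq 0.13.5, STAR 2.7.0d and StringTie 2.1.4 and the build hg19, with no role given. The deposited per-library values carry no unit. They were taken as FPKM made by the authors, because the headers match StringTie output and the sums differ between libraries. The other columns are the authors' DESeq2 results, per the file headers: a mean normalized count (a signal), log2 fold change and standard error, Wald score, p-value and adjusted p-value. The mean counts sum to 8341083, the depth per library as far as it is known; counts per library were not used here.

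Log2(FPKM + 1) of the 14068 genes averaging 1 FPKM or more was fitted with limma 3.58.1 in R 4.3.3 (trended prior, unblocked), and p-values were adjusted by Benjamini-Hochberg and called below 0.05. The fit had 2 residual and 3.61 prior degrees of freedom. Genes were named if they were members, the target, list members past the threshold or otherwise up to 3 with the smallest p, neighbours within 500 kb, or among the 6 nearest profiles. That rule's neighbours were taken from RefSeq, as the table has no coordinates; those of FGL1, and genes called in the authors' table, listed at 0 or near it, were added after their values were seen, and not every gene under the rule is reported here. Members and lists were chosen with earlier results of these data known. Of 1 unmatched marker, PECAM1, no value was taken. Alternatives were another pseudocount, filter, scaling, grouping or block and leaving out each library.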

Additional observations from a re-analysis of the deposited data

How the results depend on the processing

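All 4 genes were lower with CEBPB siRNA in each of the 40 gene-and-setting combinations run. In the 3-group fit FGA (-2.36), FGB (-1.998) and FGL1 (-1.56) passed the threshold. The spread of that fit comes from the controls alone, and that fit called far more genes than the main fit. Passing there thus does not set these genes apart. With median-of-ratios scaling FGA (-2.36) passed. FGG no longer passed with no expression filter (-1.95, limma adjusted p = 0.262) or with the replicate block (-1.95, limma adjusted p = 0.0525). Leaving out 1 library gave -2.70 to -2.02 for FGA, -2.27 to -1.72 for FGB, -2.0003 to -1.89 for FGG and -1.95 to -1.18 for FGL1. The libraries share only a number in their titles (correlation of same-numbered deviations 0.0754 across 14068 genes), and the block gave 11 genes higher and 14 lower where 9 and 24 were called without it.

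Limma called 538 higher and 433 lower in the 3-group fit, and 0 and 0 with no filter (2438 at an unadjusted p below 0.05). Without 1 library it called 0 to 870 higher and 0 to 894 lower. It called 0 without control 1 (736 unadjusted) or control 2 (685). For siRNA-1 against siRNA-2, where 16 were higher and 46 lower, limma called 186 and 169 with median-of-ratios scaling, 909 and 1006 with no filter, and 0 and 1 with a pseudocount of 0.1 (1148 and 1886 unadjusted). That contrast could not be fitted without 1 library, as no residual degree of freedom was left. The sign of each chain ratio's difference changed without 1 of the siRNAs. FGB/FGG also changed sign with 1 FPKM added (-0.051, from 0.073). The cause of these differences was not tested, and depth per library is unknown.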
